A study of Mus musculus with 16 samples.

Results

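The 10 genes described here encode the regulators and enzymes that turn surplus carbohydrate into fat in the liver: Srebf1, Mlxipl, Thrsp, Fasn, Acaca, Acacb, Acly, Scd1, Me1 and Pnpla3. They were found by gene symbol among the 19938 genes that the array names, and all 10 were measured. Acaca and Me1 each had 2 probe sets, of which the one with the higher mean over all arrays was used, and each of the others had 1. RNA was measured in liver of male mice aged 4 months on Affymetrix Mouse Gene 1.0 ST arrays, with 16 arrays in all and 1 mouse per array. The study concerns methylmalonic acidemia, the disease caused by loss of methylmalonyl-CoA mutase, a mitochondrial enzyme encoded by Mut (now named Mmut). There were 4 groups of 4 mice: Mut -/-;TgINS-MCK-Mut mutants fasted for 8 to 12 hours, mutants of that genotype without a fast on normal diet, Mut +/-;TgINS-MCK-Mut heterozygotes fasted for 12 hours, and heterozygotes without a fast on normal diet. Every mouse, controls included, therefore carried the transgene, which is named for the promoter of muscle creatine kinase (MCK), a promoter active in muscle. No mouse was wild type at Mut. Since the fasts differed in length, effects of genotype and of hours without food cannot be told apart in any comparison that involves fasted mutants.

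De novo lipogenesis is the synthesis of fatty acids from sugar carbon, and the liver runs it after meals and shuts it down during a fast. Insulin acts through SREBP-1c, a transcription factor encoded by Srebf1, while ChREBP, encoded by Mlxipl, responds to sugar metabolites. Both raise the genes of the enzymes that cut citrate into acetyl-CoA (Acly), carboxylate it to malonyl-CoA (Acaca, Acacb), build palmitate from it (Fasn), supply NADPH (Me1) and put in the first double bond (Scd1). Thrsp, also called Spot 14, is a small protein that promotes this synthesis, and Pnpla3 encodes a lipid droplet protein that is itself a target of SREBP-1c.

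The promoters of 4 members are shown as a description of their sequence. They are Srebf1 itself, Fasn and Thrsp, whose level moved most with fasting, and Acly, called lower in unfasted mutants as Srebf1 was. Each line gives the 250 bases before a RefSeq start site in GRCm38.p6, 5′ to 3′ on the gene's own strand, which is the minus strand for all 4. Srebf1 has 3 starts in the table and the one furthest downstream is printed (chr11:60210472-60210721), beside Fasn (chr11:120824548-120824797), Thrsp (chr7:97417551-97417800) and Acly (chr11:100528001-100528250). Capitals mark matches, on either strand, to a binding element of the nuclear receptor LXR (the half-sites GGTTAC and GGTCA with 4 bases between them), to the NF-Y box CCAAT and to the GC box GGGCGG. A match to ATTGG or CCGCCC is the NF-Y or GC box read from the opposite strand.
Srebf1: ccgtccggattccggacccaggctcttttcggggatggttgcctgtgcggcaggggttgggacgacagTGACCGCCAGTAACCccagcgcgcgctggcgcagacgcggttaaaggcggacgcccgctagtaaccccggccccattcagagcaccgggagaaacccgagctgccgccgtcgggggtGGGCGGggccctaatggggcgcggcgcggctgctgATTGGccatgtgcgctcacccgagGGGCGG
Fasn: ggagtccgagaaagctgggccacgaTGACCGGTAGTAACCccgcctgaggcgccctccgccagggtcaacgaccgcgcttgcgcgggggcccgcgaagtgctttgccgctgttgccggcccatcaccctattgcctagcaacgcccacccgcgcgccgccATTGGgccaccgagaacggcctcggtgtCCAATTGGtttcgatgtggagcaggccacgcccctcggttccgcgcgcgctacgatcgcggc
Thrsp: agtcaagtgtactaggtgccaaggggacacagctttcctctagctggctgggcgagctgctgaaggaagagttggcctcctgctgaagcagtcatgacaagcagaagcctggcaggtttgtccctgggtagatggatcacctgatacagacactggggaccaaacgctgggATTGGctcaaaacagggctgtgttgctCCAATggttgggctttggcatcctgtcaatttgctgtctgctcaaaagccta
Acly: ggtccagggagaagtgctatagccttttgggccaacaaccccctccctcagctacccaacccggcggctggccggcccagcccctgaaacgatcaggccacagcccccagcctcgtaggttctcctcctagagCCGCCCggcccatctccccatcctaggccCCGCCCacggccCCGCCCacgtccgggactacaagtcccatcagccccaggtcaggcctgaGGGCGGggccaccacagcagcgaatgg
Over the 300 bases from 250 before to 50 after a start, the LXR element was found in Srebf1, 182 bases before this start, and in Fasn, 225 bases before its start. The Srebf1 start to print was chosen for this match, and the other Srebf1 starts held none. It occurs in 12 of 32851 promoters of this length (0.0365%), which belong to 9 genes, the cholesterol exporter gene Abca1 among them. Its letters were taken from elements described at such genes, so the matches describe where the element lies and are no independent finding. The NF-Y box was present in 9 of the 13 promoters found for 9 members, against 37.4% of all promoters, and the GC box in 6 of 13, against 35.7%. The other elements searched on both strands were the E-box CACGTG, present in 7.15% of all promoters and in 1 member promoter, an Mlxipl start, and the sterol element TCACNCCAC, present in 1.24% and in 1 member promoter, another Mlxipl start. Neither the E-box nor the sterol element was found in a printed promoter. Scd1 is named without a promoter. The arrays give 1 value per gene, so transcripts from the 3 Srebf1 starts were not told apart.

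Expression values are log2 intensities after RMA normalization, so a difference of 1 is a 2-fold change, and each value describes its own probe set and is not comparable between genes. Differences are given ± standard error from a limma fit to all 16 arrays, two-sided, with p-values adjusted by the Benjamini-Hochberg method over all 19938 genes, and a gene is called where the adjusted p is under 0.05. Mmut, the targeted gene, averaged 8.09 ± 0.20 (SD, n = 4) in fasted mutants and 9.89 ± 0.15 in fasted heterozygotes, a limma difference of -1.80 ± 0.11 (adjusted p = 3.6e-07), which matched the labels. Hepatocyte markers averaged 12.94 to 13.25 on every array. Replicate 1 of unfasted mutants carried pancreatic acinar transcripts (a mean of 10.98 over 9 markers, against 6.96 to 7.22 on the other arrays), and replicate 1 of fasted mutants had the highest mean of 9 adipocyte markers, 8.38 against 7.30 to 7.98. Of these 9, Fabp4 (10.28 against 7.59 to 8.75 elsewhere), Adipoq (6.43 against 5.60 to 5.81), Plin1 and Retn were highest on that array, and the other 5, Lep, Cidec, Adig, Pparg and Lipe, were highest on another. Adipocytes also make fat, so counts of members called are given with and without these 2 arrays, and so are the single differences whose call changes without them. In bulk liver, fewer cells of a type and less RNA per cell cannot be told apart.

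Fasting lowered lipogenic genes in both genotypes. In mutants 6 of the 10 were lower after the fast, none was higher and 4 did not pass, where 3.35% of all genes were called, 1.02% as lower and 2.33% as higher. In heterozygotes 7 were lower, none was higher and 3 did not pass, where 1.57% of all genes were called, 0.838% as lower and 0.732% as higher. The median member difference was -0.70 in mutants, beside -0.01 over all genes, and -0.81 in heterozygotes, beside 0.01. Srebf1, Mlxipl, Thrsp, Fasn, Acaca and Acly were lower with fasting in both, and Me1 did not pass in mutants and was lower in heterozygotes. All fasted arrays lay below all unfasted arrays for each of these called genes, a separation seen in that direction for 4.54% of genes in mutants and 5.11% in heterozygotes. The mutant count was 4 to 7 when 1 array was left out, and 3 (Thrsp, Fasn and Acaca) in a fit of the 8 mutant arrays alone, which called 33 of all genes. Without replicate 1 of both mutant groups the counts were again 6 and 7, where all genes called numbered 2166 in mutants and 398 in heterozygotes, against 667 and 313 with every array.

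**Figure D1:**
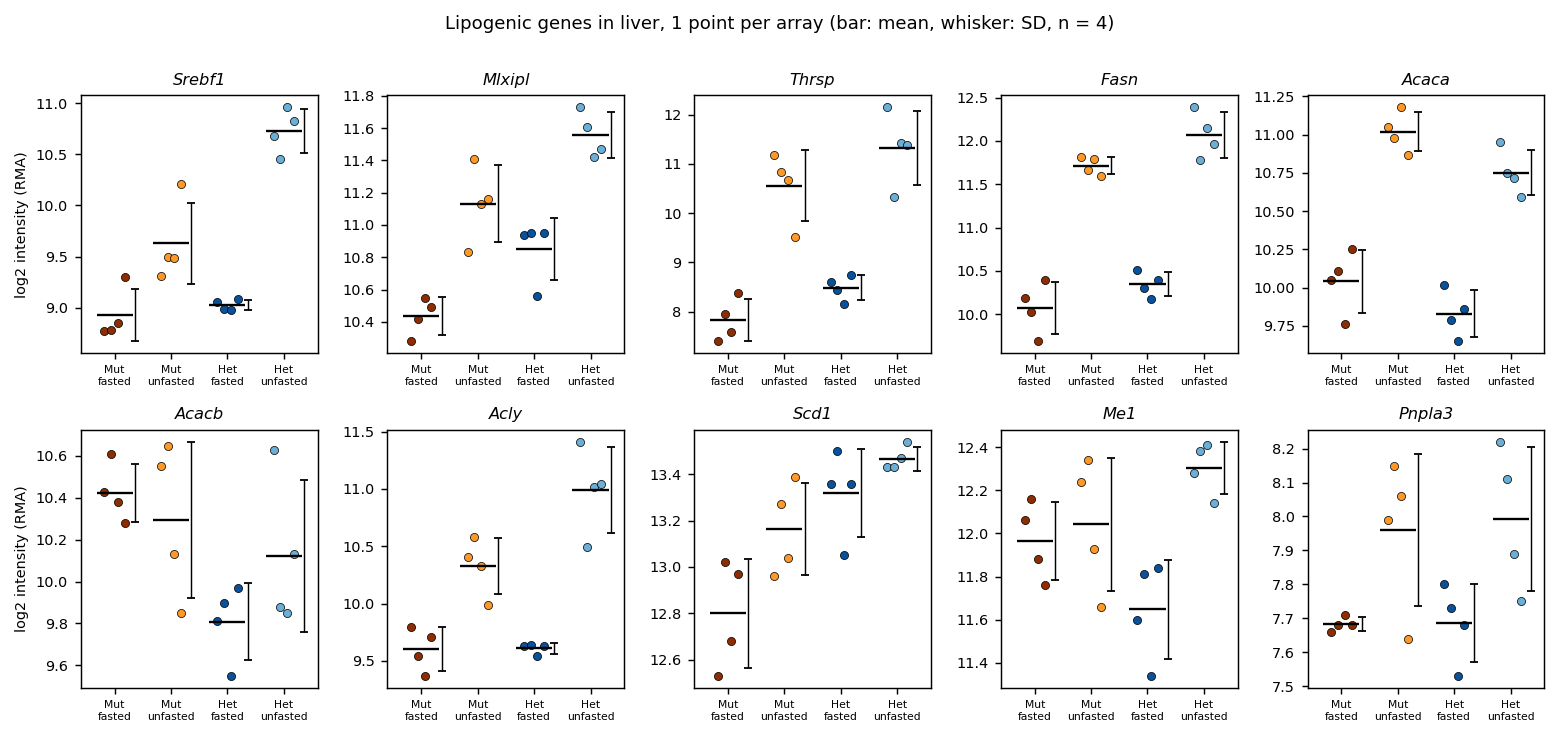
Log2 intensity of the 10 lipogenic genes on each array, 1 panel per gene and 1 point per array, with the group mean as a bar and the SD as a whisker (n = 4). Groups run from mutant fasted at the left to heterozygous unfasted at the right, and each panel has its own axis. Thrsp, Fasn, Acaca and Acly separate by feeding in both genotypes, while Srebf1 in unfasted mutants, between 9.31 and 10.21, lies between its fasted and its heterozygous unfasted levels.

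Fewer of the 10 genes were called between genotypes than between feeding states. Among the 10, fasted mutants had Mlxipl and Scd1 lower and Acacb higher than fasted heterozygotes, with 7 that did not pass, where 13.6% of all genes were called, 8.62% as higher and 5.01% as lower. Unfasted mutants had 3 of the 10 lower than unfasted heterozygotes, Srebf1, Mlxipl and Acly, with none higher and 7 that did not pass, where 7.94% of all genes were called, 3.69% as lower and 4.25% as higher. Median member differences were -0.05 fasted, beside -0.02 over all genes, and -0.33 unfasted, beside 0.01. Mutant and heterozygous arrays did not overlap for 3 members in the fasted state, where 23.7% of all genes did not overlap, and for 3 in the unfasted state (Srebf1, Mlxipl and Scd1), all with mutants below, where 5.83% of genes lay below. Without replicate 1 of both mutant groups, 2 members were called in each state, all lower.

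Srebf1, the gene of SREBP-1c, read 8.77, 8.78, 8.85 and 9.30 in fasted mutants, 9.31, 9.50, 9.49 and 10.21 in unfasted mutants, 9.06, 8.99, 8.98 and 9.08 in fasted heterozygotes, and 10.68, 10.45, 10.96 and 10.82 in unfasted heterozygotes. Unfasted heterozygotes lay above every other array, unfasted mutants lay below them without overlap, and the fasted groups overlapped at the bottom. Between the fasted genotypes the difference was -0.10 ± 0.17 (95% interval -0.454 to 0.254, limma adjusted p = 0.71). In the unfasted state the mutant was lower by 2.14-fold, with a difference of -1.10 ± 0.17 (limma, adjusted p = 0.0013), and this call held when any 1 array was left out (adjusted p up to 0.0068) and without replicate 1 of both mutant groups (-0.99 ± 0.17, adjusted p = 0.0043).

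Fasting lowered Srebf1 by 1.63-fold in mutants, a limma difference of -0.70 ± 0.17 (adjusted p = 0.032), and by 3.25-fold in heterozygotes, -1.70 ± 0.17 (adjusted p = 8e-05). The highest fasted mutant, replicate 4 at 9.30, came close to the lowest unfasted mutant, replicate 1 at 9.31. The mutant call was lost without any 1 of 5 arrays, unfasted mutant replicates 2 and 4 and fasted mutant replicates 1, 2 and 3, with adjusted p up to 0.094. It was also lost in a fit of the 8 mutant arrays alone (adjusted p = 0.16). The drop was thus 1 log2 unit smaller in mutants (standard error 0.24, 95% interval 0.499 to 1.50), with an unadjusted p of 0.00065 and an adjusted p = 0.27 by limma's interaction test. Unfasted mutants still read 1.52-fold above fasted heterozygotes, by 0.60 ± 0.17 (adjusted p = 0.029), a call lost without any 1 of 5 arrays, unfasted mutant replicate 4 and each fasted heterozygote (adjusted p up to 0.071), and in a fit of those 8 arrays alone (adjusted p = 0.053).

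Mlxipl, the gene of ChREBP, was lower with fasting in both genotypes and lower in mutants in both feeding states. Fasted mutants read 10.28, 10.42, 10.55 and 10.49 and unfasted mutants 10.83, 11.41, 11.13 and 11.16, against 10.94, 10.95, 10.56 and 10.95 in fasted and 11.73, 11.61, 11.42 and 11.47 in unfasted heterozygotes. Each of the 4 comparisons of genotype or feeding separated its groups without overlap, though the genotypes all but touched, at 10.55 in a fasted mutant and 10.56 in a fasted heterozygote, and at 11.41 in an unfasted mutant and 11.42 in an unfasted heterozygote. Fasting lowered Mlxipl by 0.70 ± 0.12 in mutants (limma, adjusted p = 0.0092) and by 0.71 ± 0.12 in heterozygotes (adjusted p = 0.0074), and both calls held without any 1 array. In a fit of the 8 mutant arrays alone the mutant call was lost (adjusted p = 0.065). The interaction was 0.01 ± 0.17 (95% interval -0.344 to 0.366).

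The genotype differences of Mlxipl were smaller, -0.41 ± 0.12 between the fasted groups (adjusted p = 0.031) and -0.42 ± 0.12 between the unfasted ones (adjusted p = 0.038). The fasted call was lost without any 1 of 5 arrays, fasted mutant replicates 1 and 2 and fasted heterozygous replicates 1, 2 and 4 (adjusted p up to 0.084). The unfasted call was lost without any 1 of 7, all the unfasted arrays but mutant replicate 2 (adjusted p up to 0.092), without replicate 1 of both mutant groups (-0.32 ± 0.11, adjusted p = 0.076), in a fit of the unfasted arrays alone (adjusted p = 0.089) and with array weights (adjusted p = 0.11).

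Thrsp had the widest range of the 10 genes. It read 7.40, 7.96, 7.59 and 8.37 in fasted mutants and 11.18, 10.84, 10.68 and 9.52 in unfasted mutants, against 8.61, 8.43, 8.16 and 8.75 in fasted heterozygotes and 12.15, 10.32, 11.43 and 11.38 in unfasted heterozygotes. The 8 fasted arrays all lay below the 8 unfasted ones, and within each feeding state the genotypes overlapped. Fasting lowered it 6.62-fold in mutants (-2.73 ± 0.36, limma adjusted p = 0.0026) and 7.12-fold in heterozygotes (-2.83 ± 0.36, adjusted p = 0.00097), and the interaction was 0.11 ± 0.51 (95% interval -0.971 to 1.19). The mutants read 0.66 ± 0.36 lower when fasted (adjusted p = 0.23) and 0.76 ± 0.36 lower when unfasted (adjusted p = 0.23), neither of which passed. Unfasted mutants read 4.20-fold above fasted heterozygotes (2.07 ± 0.36, adjusted p = 0.0019).

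**Figure D2:**
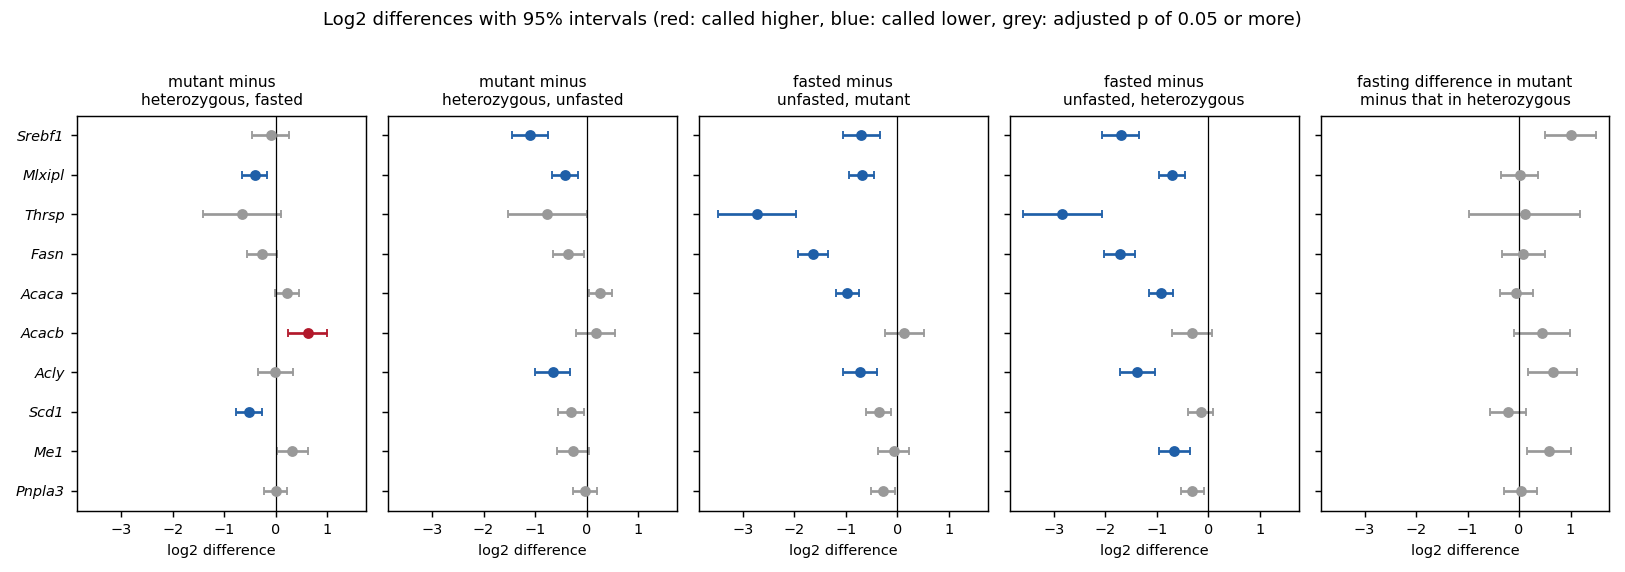
Log2 differences of the 10 genes with 95% intervals, 1 panel per comparison and the interaction at the right, from the limma fit to all 16 arrays. Blue marks a gene called lower, red a gene called higher and grey one that did not pass. The fasting panels hold 6 blue genes in mutants and 7 in heterozygotes, and no interval in the interaction panel is called, although that of Srebf1 runs from 0.499 to 1.50.

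The enzymes of the path from citrate to palmitate came next. Acly, ATP citrate lyase, which makes the acetyl-CoA, read 9.80, 9.54, 9.37 and 9.71 in fasted mutants and 10.41, 10.58, 10.33 and 9.99 in unfasted mutants, against 9.63, 9.64, 9.54 and 9.63 in fasted and 11.41, 10.49, 11.02 and 11.04 in unfasted heterozygotes. Fasted and unfasted arrays did not overlap in either genotype, and the unfasted genotypes overlapped through heterozygous replicate 2. Fasting lowered it 1.65-fold in mutants (-0.72 ± 0.16, limma adjusted p = 0.023) and 2.60-fold in heterozygotes (-1.38 ± 0.16, adjusted p = 0.00056). The mutant call was lost without any 1 of 3 arrays, unfasted mutant replicate 2 and fasted mutant replicates 2 and 3 (adjusted p up to 0.069), and in a fit of the mutant arrays alone (adjusted p = 0.079).

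The drop of Acly with fasting was 0.66 ± 0.22 smaller in mutants, with an unadjusted p of 0.0098 and an adjusted p = 0.38. Unfasted mutants were lower than unfasted heterozygotes by 0.66 ± 0.16 (1.58-fold, adjusted p = 0.018), and this call was lost without heterozygous replicate 3 or 4 (adjusted p up to 0.055) and in a fit of the unfasted arrays alone (adjusted p = 0.084). The fasted genotypes differed by -0.01 ± 0.16 (95% interval -0.342 to 0.328). Its group means ran from the fasted groups, the lowest, through unfasted mutants to unfasted heterozygotes, an order shared by Srebf1, Mlxipl, Thrsp, Fasn and Pnpla3.

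Acaca, acetyl-CoA carboxylase 1, which commits carbon to fatty acid synthesis, read 10.05, 10.11, 9.76 and 10.25 in fasted mutants and 11.05, 10.98, 11.18 and 10.87 in unfasted mutants, against 10.02, 9.79, 9.65 and 9.86 in fasted and 10.95, 10.75, 10.72 and 10.59 in unfasted heterozygotes. Feeding separated it in both genotypes, and the genotypes overlapped within each feeding state. Fasting lowered it by 0.97 ± 0.11 in mutants (1.96-fold, limma adjusted p = 0.00064) and by 0.92 ± 0.11 in heterozygotes (1.89-fold, adjusted p = 0.00067), with an interaction of -0.05 ± 0.15 (95% interval -0.378 to 0.271). Its genotype differences were positive, 0.21 ± 0.11 fasted (adjusted p = 0.19) and 0.27 ± 0.11 unfasted (adjusted p = 0.15), and did not pass. Unfasted mutants had the highest group mean, 11.02, beside 10.75 in unfasted heterozygotes.

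Fasn, fatty acid synthase, read 10.19, 10.03, 9.69 and 10.40 in fasted mutants and 11.81, 11.66, 11.79 and 11.60 in unfasted mutants, against 10.51, 10.30, 10.18 and 10.40 in fasted and 12.39, 11.78, 12.15 and 11.96 in unfasted heterozygotes. Fasted and unfasted arrays were far apart in both genotypes, and the genotypes overlapped in each state. Fasting lowered it 3.12-fold in mutants (-1.64 ± 0.14, limma adjusted p = 6.4e-05) and 3.30-fold in heterozygotes (-1.72 ± 0.14, adjusted p = 3.1e-05), with an interaction of 0.08 ± 0.20 (95% interval -0.335 to 0.502). The mutants read 0.27 ± 0.14 lower when fasted (adjusted p = 0.20) and 0.36 ± 0.14 lower when unfasted (adjusted p = 0.14). For Fasn, Acaca and Thrsp the fasting calls in both genotypes held without any 1 array, with adjusted p up to 0.012.

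**Figure D3:**
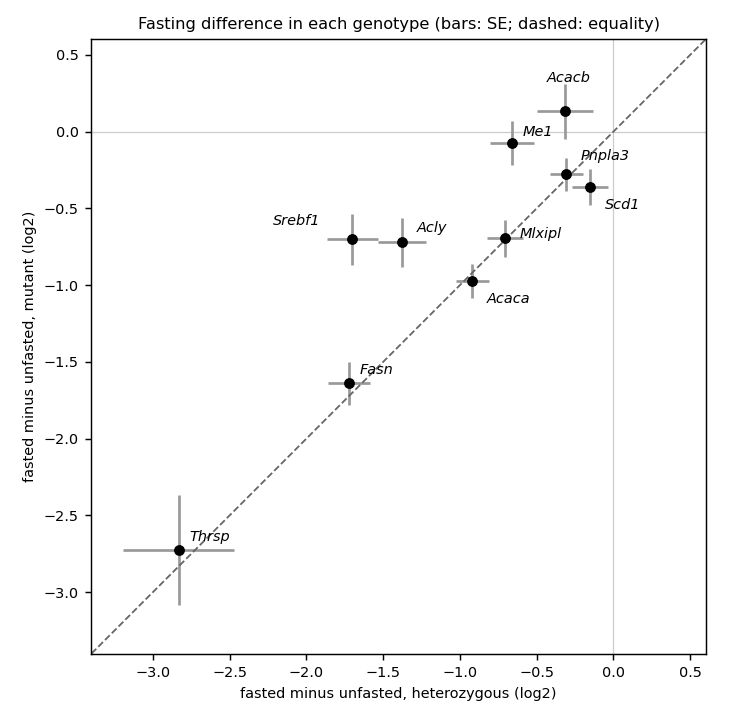
Fasting difference (fasted minus unfasted, log2) of each gene in mutants on the vertical axis and in heterozygotes on the horizontal axis, with standard errors as bars and equality as a dashed line. Thrsp, Fasn, Acaca and Mlxipl lie on the line, while Srebf1 (-0.70 in mutants, -1.70 in heterozygotes), Acly and Me1 lie above it. The distance from the line is the interaction, which was called for none of the 10.

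Acacb, acetyl-CoA carboxylase 2, makes the malonyl-CoA that restrains entry of fatty acids into mitochondria. It read 10.43, 10.61, 10.38 and 10.28 in fasted mutants and 10.55, 10.65, 10.13 and 9.85 in unfasted mutants, against 9.81, 9.90, 9.55 and 9.97 in fasted and 10.63, 9.88, 9.85 and 10.13 in unfasted heterozygotes. Fasted mutants all lay above fasted heterozygotes, and the unfasted groups spread over both. It was 1.54-fold higher in fasted mutants (0.62 ± 0.18, limma adjusted p = 0.033), the only member called higher by genotype. That call was lost without any 1 of 5 arrays, fasted mutant replicates 1 and 2 and fasted heterozygous replicates 1, 2 and 3 (adjusted p up to 0.098), and without replicate 1 of both mutant groups (0.62 ± 0.20, adjusted p = 0.056). Fasting differences were 0.13 ± 0.18 in mutants (adjusted p = 0.68) and -0.32 ± 0.18 in heterozygotes (adjusted p = 0.55).

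Scd1, stearoyl-CoA desaturase, read 12.53, 13.02, 12.68 and 12.97 in fasted mutants and 12.96, 13.27, 13.04 and 13.39 in unfasted mutants, against 13.36, 13.50, 13.05 and 13.36 in fasted and 13.43, 13.43, 13.47 and 13.54 in unfasted heterozygotes. Mutants lay below heterozygotes without overlap in each feeding state. Their difference was -0.52 ± 0.12 when fasted (1.43-fold, limma adjusted p = 0.0092), which held without any 1 array (adjusted p up to 0.033) and without replicate 1 of both mutant groups (-0.43 ± 0.11, adjusted p = 0.021). In the unfasted state it was -0.30 ± 0.12 and did not pass (adjusted p = 0.13). Its fasting differences were -0.36 ± 0.12 in mutants (adjusted p = 0.092) and -0.15 ± 0.12 in heterozygotes (adjusted p = 0.71), and neither passed. The mutant difference passed without unfasted mutant replicate 1 (adjusted p = 0.039), but not without replicate 1 of both mutant groups. Its mean brightness exceeds that of 99.9% of genes on the arrays.

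Me1, malic enzyme 1, a source of NADPH, read 12.06, 12.16, 11.88 and 11.76 in fasted mutants and 12.24, 12.34, 11.93 and 11.66 in unfasted mutants, against 11.60, 11.81, 11.34 and 11.84 in fasted and 12.28, 12.38, 12.41 and 12.14 in unfasted heterozygotes. The feeding states overlapped in mutants and were separate in heterozygotes. The fasting difference was -0.08 ± 0.14 in mutants (limma, adjusted p = 0.77). In heterozygotes the fall was 0.66 ± 0.14 (1.58-fold, adjusted p = 0.027), a call lost without any 1 of 4 arrays, unfasted heterozygous replicates 2 and 3 and fasted replicates 1 and 3 (adjusted p up to 0.093). The interaction was 0.58 ± 0.20 (unadjusted p 0.01, adjusted p = 0.38). Its second probe set gave -0.13 ± 0.14 in mutants (adjusted p = 0.60) and -0.68 ± 0.14 in heterozygotes (adjusted p = 0.019).

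Pnpla3 was the dimmest member, near the middle of all genes by brightness, and was called in no comparison. It read 7.66, 7.68, 7.71 and 7.68 in fasted mutants and 7.99, 8.15, 8.06 and 7.64 in unfasted mutants, against 7.80, 7.73, 7.53 and 7.68 in fasted and 8.22, 8.11, 7.89 and 7.75 in unfasted heterozygotes. Both fasted groups averaged 7.68, and replicate 4 of unfasted mutants (7.64) and of unfasted heterozygotes (7.75) fell among the fasted arrays. Fasting differences were -0.28 ± 0.11 in mutants (limma, adjusted p = 0.15) and -0.31 ± 0.11 in heterozygotes (adjusted p = 0.20), with unadjusted p of 0.02 and 0.011. A dim probe set can understate a change.

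The interaction of genotype and fasting was called for none of the 10 genes by limma, where 0.0100% of all genes were called, all as higher (0% as lower), and 3 members had an unadjusted p under 0.05: Srebf1, Acly and Me1. The share of all genes under that unadjusted threshold was not counted, so these 3 are not shown to be an excess. All 3 had a smaller drop in mutants. Thrsp, Fasn, Acaca and Mlxipl, by contrast, had interaction estimates between -0.05 and 0.11. An adjusted p that misses the threshold does not show that the genotypes responded alike, and the intervals above bound each difference.

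To set Srebf1 beside the genes it regulates, the log2 ratio of Srebf1 to each other member was taken within each array and compared between genotypes by an exact permutation test, two-sided, for which 4 against 4 arrays allow no p under 0.029. The ratio to Acaca was 1.37 ± 0.29 lower in unfasted mutants than in unfasted heterozygotes and the ratio to Scd1 0.80 ± 0.16 lower, both without overlap (exact permutation p = 0.029 each). The ratio differences to Fasn (-0.74 ± 0.27) and Acacb (-1.27 ± 0.43) came with overlap (exact permutation p = 0.057 each). So did those to Pnpla3 (-1.07 ± 0.36) and Mlxipl (-0.68 ± 0.26), with exact permutation p = 0.086 each, and to Me1 (-0.84 ± 0.36, exact permutation p = 0.11). Ratios to Thrsp (-0.34 ± 0.65) and Acly (-0.44 ± 0.35) overlapped widely. Over the 9 ratios tested, none passed after Benjamini-Hochberg adjustment (lowest adjusted p = 0.13). With 9 tests and no p under 0.029, an adjusted p under 0.05 would need most of the ratios at that smallest p. The adjusted values therefore cannot decide on single ratios. Between the fasted groups the ratio to Acacb was 0.72 ± 0.20 lower in mutants and that to Thrsp 0.56 ± 0.17 higher, again with exact permutation p = 0.029 and adjusted p = 0.13.

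Unfasted mutants were also set against fasted heterozygotes, to place the unfasted mutant level against the fasted level of the control genotype. Here 5 of 10 genes were higher in unfasted mutants, none was lower and 5 did not pass, where 10.9% of all genes were called, 5.96% as higher and 4.90% as lower. The 5 called genes did not overlap between the groups, as 8.14% of all genes did not in that direction. Acaca was 2.28-fold higher (1.19 ± 0.11, limma adjusted p = 2.4e-05), Fasn 2.58-fold (1.37 ± 0.14, adjusted p = 8e-05) and Acly 1.64-fold (0.71 ± 0.16, adjusted p = 0.0089), beside Thrsp and Srebf1. Only Scd1 read lower, by 0.15 ± 0.12 (adjusted p = 0.48). Without replicate 1 of both mutant groups 6 were higher, Mlxipl (0.38 ± 0.11, adjusted p = 0.034) in addition. Without unfasted mutant replicate 4, Acacb, Me1 and Pnpla3 passed as higher (limma, adjusted p = 0.027, 0.019 and 0.018), while Srebf1 lost its call.

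Regulators upstream of SREBP-1c and partners of the 10 genes were described from lists of the same pathway. The counts for every list below stand beside these shares of all genes. With fasting, 1.02% were lower and 2.33% higher in mutants, and 0.838% and 0.732% in heterozygotes. Between genotypes, 5.01% were lower and 8.62% higher in fasted mutants, and 3.69% and 4.25% in unfasted mutants. No list was tested as a set, and a count near these shares does not set a list apart. Of 13 genes of SREBP processing and partner regulators, 1 was higher and 1 lower with fasting in mutants, and 2 were lower in heterozygotes. Mid1ip1, a relative and binding partner of Thrsp, read 8.27, 8.37, 8.47 and 8.55 in fasted and 9.27, 9.07, 9.18 and 9.15 in unfasted mutants, against 8.45, 8.45, 8.33 and 8.29 in fasted and 9.76, 9.16, 9.72 and 9.66 in unfasted heterozygotes. It was lower with fasting by 0.75 ± 0.11 in mutants (limma, adjusted p = 0.0036) and by 1.20 ± 0.11 in heterozygotes (adjusted p = 3.9e-05). Insig1, which holds SREBPs in the endoplasmic reticulum and is their target, fell with fasting in heterozygotes by 1.07 ± 0.22 (adjusted p = 0.019), a call lost without any 1 of 3 arrays (unfasted replicates 3 and 4, fasted replicate 1; up to 0.071).

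Its relative Insig2 moved the other way, 0.71 ± 0.15 higher in fasted than in unfasted mutants (adjusted p = 0.022), and lost the call without any 1 of 3 arrays (unfasted replicate 4, fasted replicates 2 and 3; up to 0.060). Between genotypes, none of the 13 passed in the fasted state, and 1 was higher and 2 lower in unfasted mutants (3 lower without replicate 1 of both mutant groups). Srebf2, the gene of SREBP-2, which governs cholesterol synthesis, was 0.41 ± 0.09 higher in unfasted mutants (adjusted p = 0.011), opposite to Srebf1. Insig2 and Mid1ip1 were the genes called lower there, by 0.57 ± 0.15 and 0.41 ± 0.11, and each lost its call without any 1 of 6 arrays (the unfasted arrays but mutant and heterozygous replicate 1 for Insig2, and but mutant replicate 1 and heterozygous replicate 2 for Mid1ip1; adjusted p up to 0.12).

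Among 11 measured genes of insulin signalling and its readouts, 2 were higher and none lower in fasted mutants, where 8.62% of all genes were higher. In unfasted mutants 3 were higher and none lower, where 4.25% of all genes were higher. The second count was 1 to 4 when 1 array was left out. Igfbp1, which insulin represses, read 12.87, 12.41, 11.29 and 11.60 in unfasted mutants against 9.40, 10.14, 7.93 and 9.37 in unfasted heterozygotes, without overlap, a difference of 2.83 ± 0.46 (limma, adjusted p = 0.0021). After the fast it read 0.28 ± 0.46 higher in mutants (adjusted p = 0.74) and was 2.13 ± 0.46 higher in heterozygotes (adjusted p = 0.027), the second a call lost without any 1 of 5 arrays (unfasted replicates 3 and 4, fasted replicates 1, 3 and 4, up to 0.096). Igfbp1 and Srebf1 thus had opposite directions in unfasted mutants, each the direction that fasting took in heterozygotes. Not every gene followed that pattern. Pck1, a gluconeogenic gene, was 0.60 ± 0.10 higher with fasting in heterozygotes (limma, adjusted p = 0.0077). Between the unfasted genotypes it differed by 0.09 ± 0.10 (adjusted p = 0.68). Insig2 read 0.45 ± 0.15 higher with fasting in heterozygotes (adjusted p = 0.19) and was lower in unfasted mutants (-0.57 ± 0.15, adjusted p = 0.033). Igfbp1 in unfasted mutants read 0.70 ± 0.46 above fasted heterozygotes, with overlap (limma, adjusted p = 0.39). Trib3, an inhibitor of the kinase Akt, was higher in mutants by 1.10 ± 0.25 fasted (adjusted p = 0.0090) and 0.92 ± 0.25 unfasted (adjusted p = 0.031). The unfasted call was lost without any 1 of 6 arrays (mutant replicates 1 and 4 and all 4 heterozygotes; up to 0.076). Mtor was higher by 0.69 ± 0.11 and 0.47 ± 0.11 in those states, and its unfasted call was lost without heterozygous replicate 3 or 4 (up to 0.054).

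**Figure D4:**
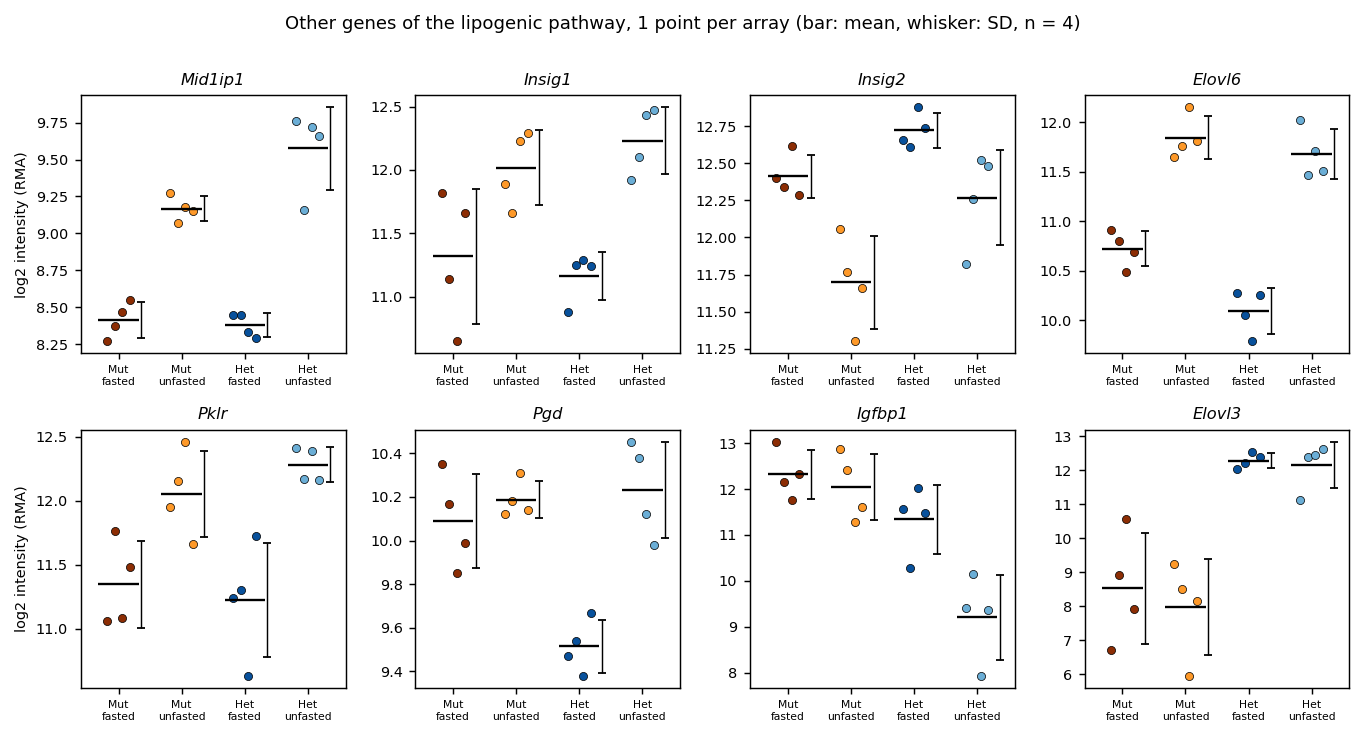
Log2 intensity of 8 other genes of the pathway on each array, 1 point per array, with the group mean as a bar and the SD as a whisker (n = 4). Mid1ip1 and Elovl6 separate by feeding in both genotypes as Thrsp and Fasn do. Igfbp1 is lowest in unfasted heterozygotes, at 7.93 to 10.14, and Elovl3 is low in both mutant groups.

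Sugar entry and the supply of citrate and NADPH were described from 8 and 9 genes. With fasting, 1 of the 8 sugar genes was higher and 1 lower in mutants, and 1 was lower in heterozygotes. Both mutant calls, of G6pc and Tkfc, were lost without replicate 1 of fasted mutants and without replicate 1 of both mutant groups, and G6pc was lost without any 1 of 4 arrays and Tkfc without any 1 of 11. Pklr, liver pyruvate kinase and a target of ChREBP, fell by 1.06 ± 0.21 in heterozygotes (limma, adjusted p = 0.018), a call lost without unfasted replicate 3 (adjusted p = 0.057). Between genotypes, 2 of the 8 were lower in mutants and none higher in each state (1 lower fasted without replicate 1 of both mutant groups). Khk, ketohexokinase of fructose metabolism, was 0.57 ± 0.14 lower in fasted mutants, with overlap (adjusted p = 0.014). That call held without any 1 array (up to 0.045). Khk was 0.50 ± 0.14 lower in unfasted mutants (adjusted p = 0.037), lost without any 1 of 5 arrays (mutant replicates 2 and 4, heterozygous replicates 2, 3 and 4, up to 0.13). G6pc, the catalytic unit of glucose-6-phosphatase, was 0.74 ± 0.17 lower there (adjusted p = 0.017), lost without mutant replicate 2 or heterozygous replicate 3 (up to 0.055).

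Of the 9 citrate and NADPH genes, 2 were lower with fasting in mutants and 3 in heterozygotes, with none higher, and the mutant count was 1 without replicate 1 of both mutant groups. Pgd, a pentose phosphate enzyme that makes NADPH, fell by 0.72 ± 0.11 in heterozygotes (limma, adjusted p = 0.0064), and was 0.58 ± 0.11 higher in fasted mutants than in fasted heterozygotes (adjusted p = 0.0047). Slc25a1, the citrate carrier that feeds Acly, fell by 0.33 ± 0.06 in heterozygotes (adjusted p = 0.0095), with -0.17 ± 0.06 in mutants (adjusted p = 0.11). Acss2, which makes acetyl-CoA from acetate, fell by 0.93 ± 0.19 in mutants (adjusted p = 0.015), with -0.63 ± 0.19 in heterozygotes (adjusted p = 0.11). The interaction was called for neither (adjusted p = 0.47 and 0.65). The fasted genotype comparison called 3 of the 9 higher and none lower, and the unfasted one called none, with a median of -0.05. Without replicate 1 of both mutant groups the fasted count was 2, and it was 1 to 3 when 1 array was left out.

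Genes that act on the fatty acid after Fasn split by enzyme. Of 13 elongation and desaturation genes, 2 were higher and 1 lower with fasting in mutants, and 2 were lower in heterozygotes. Elovl6, which extends palmitate, read 10.91, 10.80, 10.49 and 10.69 in fasted and 11.65, 11.76, 12.15 and 11.81 in unfasted mutants, against 10.28, 10.05, 9.79 and 10.26 in fasted and 12.02, 11.47, 11.71 and 11.51 in unfasted heterozygotes. It fell with fasting by 1.12 ± 0.14 in mutants (limma, adjusted p = 0.0019) and 1.58 ± 0.14 in heterozygotes (adjusted p = 3.9e-05). Fasted mutants were 0.63 ± 0.14 above fasted heterozygotes (adjusted p = 0.0094), with no overlap.

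Between the fasted genotypes 6 of the 13 were higher in mutants and 1 lower, the same counts without replicate 1 of both mutant groups, and between the unfasted ones 1 was higher and 1 lower. The higher one, Elovl1, did not pass when any 1 of 8 arrays was dropped (adjusted p at most 0.12), nor without replicate 1 of both mutant groups. The lower gene in both was Elovl3, an elongase known to be higher in male than in female mouse liver, at -3.75 ± 0.70 fasted (adjusted p = 0.0033) and -4.17 ± 0.70 unfasted (adjusted p = 0.0026). Elovl1 was higher, by 0.68 ± 0.09 fasted (adjusted p = 0.0004).

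Of 11 glycerolipid synthesis genes, none was lower with fasting and 2 were higher in each genotype. Agpat2, an acyltransferase of triglyceride synthesis, was lower in mutants by 0.42 ± 0.09 fasted (limma, adjusted p = 0.0070) and 0.39 ± 0.09 unfasted (adjusted p = 0.015). Of 10 genes around malonyl-CoA, 1 was higher in fasted than unfasted mutants (2 without replicate 1 of both mutant groups) and 2 were higher and 1 lower in heterozygotes. Cpt1a, the mitochondrial entry step that malonyl-CoA inhibits, was 0.46 ± 0.10 higher with fasting in mutants (adjusted p = 0.023; lost without unfasted replicate 4 or fasted replicate 3, up to 0.059) and 0.52 ± 0.10 higher in heterozygotes (adjusted p = 0.015; lost without fasted replicate 3, 0.054). Prkaa2, a catalytic subunit of AMPK, which inhibits both carboxylases, was 0.42 ± 0.08 higher in fasted mutants than in fasted heterozygotes (adjusted p = 0.0049), where Acacb was also higher.

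Of 12 genes known to respond to a fast, 3 were higher after the fast in mutants and 4 in heterozygotes, with none lower (4 and 5 without replicate 1 of both mutant groups). Over all genes, 2.33% were higher in mutants and 0.732% in heterozygotes. The list was chosen with earlier results of these data known, so it is no independent check of the feeding labels. Pck1, a gluconeogenic enzyme, was higher by 0.55 ± 0.10 in mutants (limma, adjusted p = 0.011) and 0.60 ± 0.10 in heterozygotes (adjusted p = 0.0077). Angptl4, an inhibitor of lipoprotein lipase, was 1.08 ± 0.18 higher in fasted heterozygotes (adjusted p = 0.0088), and Ppargc1a was 1.33 ± 0.26 higher in fasted mutants (adjusted p = 0.015). In unfasted mutants 3 of the 12 were higher than in unfasted heterozygotes, Pdk4 by 2.17 ± 0.39, Fgf21 by 1.65 ± 0.23 and Cyp4a10 by 0.49 ± 0.13. Cyp4a10 lost this call without any 1 of 4 arrays (mutant replicates 2, 3 and 4, heterozygous replicate 3, adjusted p up to 0.085). With fasting, Pdk4 was called in neither genotype (limma, 0.50 ± 0.39 in mutants, adjusted p = 0.45, and 1.02 ± 0.39 in heterozygotes, adjusted p = 0.25). Nor was Fgf21 (-0.76 ± 0.23 in mutants, adjusted p = 0.074, and 0.27 ± 0.23 in heterozygotes, adjusted p = 0.74). Cyp4a10 was 0.68 ± 0.13 higher with fasting in heterozygotes (adjusted p = 0.014).

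**Figure D5:**
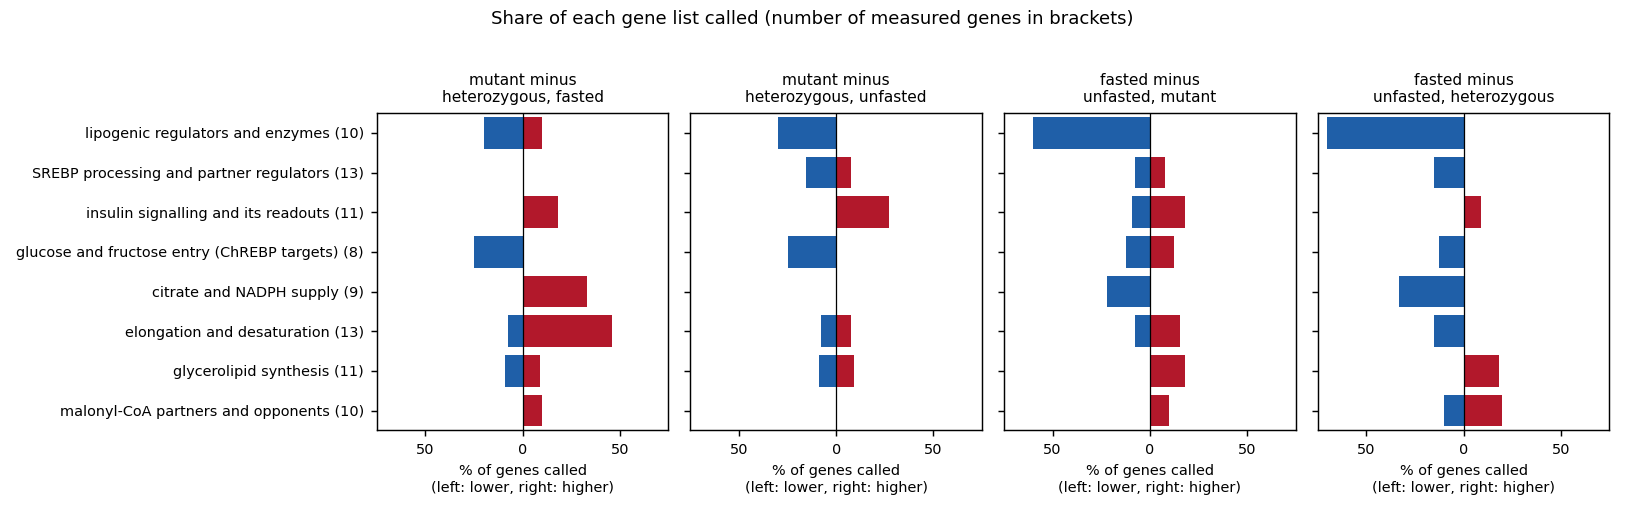
Share of the measured genes of each list called lower (blue, to the left) or higher (red, to the right), in percent, for the 10 lipogenic genes and 7 lists around them, 1 panel per comparison. The lipogenic genes have the longest blue bars in both fasting panels, 6 of 10 in mutants and 7 of 10 in heterozygotes. The elongation and desaturation list has 6 of 13 genes higher between the fasted genotypes.

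Markers of other liver cell types moved with genotype beside these genes. Of 8 endothelial markers, 6 were higher in mutants in each state, and their mean level ran from 9.60 to 9.85 in fasted mutants and 9.47 to 9.78 in unfasted mutants, against 9.10 to 9.30 in fasted and 8.93 to 9.31 in unfasted heterozygotes. Leaving out 1 array gave 5 to 7 fasted and 3 to 7 unfasted. Macrophage markers were higher in fasted mutants for 7 of 8 (9.49 to 9.87, against 8.73 to 9.26 in fasted heterozygotes) and for none in unfasted mutants (5 to 8 and 0 to 2 when 1 array was left out). Stellate cell markers were higher for 3 of 8 in fasted and 5 of 8 in unfasted mutants (1 to 4 and 1 to 5 when 1 array was left out, with 1 fasted without fasted mutant replicate 1). Without replicate 1 of both mutant groups the fasted counts were 5 endothelial, 5 macrophage and 2 stellate markers. Of 9 hepatocyte markers, 1 was lower in each state, Serpina1c, at -0.38 ± 0.09 fasted and -0.40 ± 0.09 unfasted, the second a call that ended when either mutant replicate 3 or heterozygous replicate 4 of that state was dropped (adjusted p at most 0.054). With fasting, none of these markers was called in either genotype, but 3 stellate markers were lower in mutants without replicate 1 of both mutant groups. Their part in the genotype differences of Srebf1, Mlxipl, Scd1, Acly and Acacb was not tested.

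Genes whose levels followed those of the regulators were listed by Pearson's r over the 16 arrays, as a description, since the arrays share their 4 groups. Srebf1 was followed most closely by Gsap (0.93), Ormdl1 (0.92), Mid1ip1 (0.91), Cyp2r1 (0.91) and Cyb5b (0.90). Thrsp was followed by Mid1ip1 (0.95), H3c4 (0.94), Idh1 (0.93), Pik3r1 (0.93) and Pstpip2 (0.92), and among the members by Fasn (0.97) and Acly (0.94). For Mlxipl they were Angptl8 (0.94), Atxn7l1 (0.94), Cyb5r3 (0.92), Slc25a44 (0.92) and Zbtb20 (0.91). For Pnpla3 they were Cpsf6 (0.86), Inhba (0.86), Chrm2 (0.84), Erbb4 (0.83) and Ythdf1 (0.83), none of them a gene of the lists above. Acacb followed Srebf1 least among the members (-0.12).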

How the data were processed

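The authors deposited 1 table of log2 values for 16 arrays, made with Affymetrix Expression Console and RMA, per the submitters' processing notes; versions and genome build are not given in the sources used here. Quantile normalization within RMA evens out array-wide shifts, and the deposited table has no detection calls. The label protocol started from 300 ng of total RNA. The deposited log2 values ran from 3.80 to 14.33, with array medians of 7.33 to 7.40, and no arrays were identical. Of 35556 probe sets, the platform annotation gave 1 symbol to 21789, several to 1621 and none listed here to 12146. Symbols were updated by gene number through RefSeq genes of GRCm38.p6 (21698 matched), and the brightest probe set was kept for each of 19938 genes, without a filter on dim genes.

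Groups came from the sample titles, and the design text describes separate mice. Differences came from limma 3.58.1 in R 4.3.3, with 1 mean per group over 16 arrays, eBayes with an intensity trend and Benjamini-Hochberg adjustment over all genes, after a test on simulated data. The number of arrays limits the precision. The 10 genes and all gene lists were chosen with earlier results of these data known. Named genes were the 10 members, up to 3 called and fully separated genes with the largest change per list and comparison, the 5 genes most correlated with each regulator and with Pnpla3, Mmut, and markers of arrays that stand apart. A gene that one comparison names may be given in the others. Promoters are RefSeq sequences of GRCm38.p6. Alternatives were a replicate block, only the arrays compared, array weights, other normalizations and variance settings, other probe sets, bright genes only, and leaving out arrays.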

Additional observations from a re-analysis of the deposited data

Results flagged for a closer look

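Of 40 sets of 4 arrays (10 genes in 4 groups), 3 held an array whose gap to its nearest neighbour took more of the group's range than Dixon's 95% critical value allows, and chance alone flags about 1 in 20 sets. Srebf1 in fasted mutant replicate 4 read 9.30, above 8.77 to 8.85 on the 3 others. Mlxipl in fasted heterozygous replicate 3 read 10.56, below 10.94 to 10.95 on the others. Acly in that array read 9.54, below 9.63 to 9.64, a gap that is large only beside the narrow spread of the others. The fasting call of Srebf1 in mutants held without fasted mutant replicate 4, and the calls of Mlxipl and Acly against fasted heterozygotes held without replicate 3 of that group.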

How the results depend on the processing

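No called difference of a member changed sign under the alternatives run. A fit of only the arrays compared gave 1 member called between the unfasted genotypes (3 in the fit to all arrays) with 764 genes in all (1584), 3 members with fasting in mutants (6) with 33 genes (667), and 568 genes with fasting in heterozygotes (313). Array weights gave 1029 genes there. The interaction called 2 genes, 1 with array weights, 1 with median-centred arrays, and 0 with robust moderation or with bright genes only. Without replicate 1 of both mutant groups, chosen after seeing the data, all genes called were 2388 between the fasted and 2000 between the unfasted genotypes, 2166 with fasting in mutants and 398 in heterozygotes, 2495 between unfasted mutants and fasted heterozygotes, and 0 for the interaction. Leaving out 1 array at a time gave 1 to 3 members between the fasted genotypes (1575 to 3180 genes), 1 to 3 between the unfasted ones (698 to 1781), 4 to 7 with fasting in mutants (224 to 1941), 6 to 7 with fasting in heterozygotes (155 to 358), 4 to 7 between unfasted mutants and fasted heterozygotes (1401 to 2357), and 0 for the interaction (0 to 6). The labels number the replicates of each group, but only 9 of 24 same-numbered pairs of arrays had deviations correlated above 0.1 (-0.12 to 0.252), so the numbers were not taken to pair mice. With the replicate block, members called were 3 and 4 between the fasted and unfasted genotypes, 7 with fasting in each genotype, 5 between unfasted mutants and fasted heterozygotes, and 0 for the interaction. Scd1 gained calls there (adjusted p = 0.047 between the unfasted genotypes and 0.040 with fasting in mutants). Over all genes, fewer were called with the block than the 667 without it for fasting in mutants. The number for the interaction, 2, was unchanged. More were called with the block in every other comparison. Without the block, all genes called there were 2716 between the fasted and 1584 between the unfasted genotypes. They were 313 with fasting in heterozygotes and 2164 between unfasted mutants and fasted heterozygotes. The causes of these changes were not tested. The number of arrays, 4 per group, limits what can be called, and the table has no background values.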
